A study of Mus musculus with 6 samples.

Results

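The calcium handling genes of cardiomyocytes were examined as a set of 10 genes, Cacna1c, Cacna1d, Ryr2, Casq2, Trdn, Hrc, Atp2a2, Pln, Sln and Slc8a1, chosen by name for their known roles. All 10 were found by symbol among the 18810 genes of the deposited table. The table holds RNA-seq values from atrioventricular canal regions of C57BL/6 mouse hearts at embryonic day 15.5, with 3 Scx-/- libraries, which lack a functional scleraxis gene in every cell, and 3 libraries from Scx+/+ wild-type littermates. The tissue held mitral, tricuspid and aortic valves of 3 embryos of each genotype and was dissected to keep myocardium low, and the cells were not sorted. The comparison of genotypes asks which mRNAs differ in remodeling valves without Scx, a basic helix-loop-helix transcription factor of tendons and valves.

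In cardiomyocytes, depolarization opens L-type calcium channels, and the entering calcium opens ryanodine receptors on the sarcoplasmic reticulum, which release the stored calcium that drives contraction. Relaxation follows when a calcium ATPase pumps calcium back into the store and an exchanger carries the rest out of the cell. Most of these proteins are best known from muscle, although the ATPase SERCA2 is also made by many other cells. In bulk tissue, fewer cardiomyocytes and less RNA of a gene per cardiomyocyte cannot be told apart.

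The promoters of the called gene Ryr2, of Casq2, which had the widest spread among the abundant genes, and of Pln, the most abundant gene, are shown for reference. Of the 10 genes, 7 had at least 1 window in the RefSeq promoter table (build GRCm38.p6, 250 bases before to 50 bases after a gene start). Atp2a2, Trdn and Sln had none. Windows are printed 5′ to 3′ on the strand of the gene, with capitals for E-boxes (CANNTG, the same on both strands), the class of site that basic helix-loop-helix proteins bind, and for a match to the MEF2 motif, searched on both strands.
Ryr2, chr13:12106896-12107195, minus strand: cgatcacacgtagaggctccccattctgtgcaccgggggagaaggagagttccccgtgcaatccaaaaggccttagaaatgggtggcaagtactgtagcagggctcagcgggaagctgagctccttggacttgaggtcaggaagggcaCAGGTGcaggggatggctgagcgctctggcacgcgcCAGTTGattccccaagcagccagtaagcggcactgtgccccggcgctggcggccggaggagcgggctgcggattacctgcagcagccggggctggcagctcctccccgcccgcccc
Casq2, chr3:102086165-102086464, plus strand: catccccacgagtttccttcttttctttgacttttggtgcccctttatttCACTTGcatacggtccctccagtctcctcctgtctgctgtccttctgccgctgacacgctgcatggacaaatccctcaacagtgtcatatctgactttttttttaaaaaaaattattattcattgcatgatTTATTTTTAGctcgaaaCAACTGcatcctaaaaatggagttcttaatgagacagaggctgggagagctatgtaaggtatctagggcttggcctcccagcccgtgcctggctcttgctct
Pln, chr10:53337436-53337735, plus strand: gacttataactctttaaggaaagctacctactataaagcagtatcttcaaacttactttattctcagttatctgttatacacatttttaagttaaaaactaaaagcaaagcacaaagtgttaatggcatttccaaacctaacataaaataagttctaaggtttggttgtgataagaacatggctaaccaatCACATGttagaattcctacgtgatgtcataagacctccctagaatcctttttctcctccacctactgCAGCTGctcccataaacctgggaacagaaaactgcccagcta
Each of these windows held 2 E-boxes. Of the 10 windows of the calcium handling genes, 9 held at least 1 E-box, and 72.3% of all 32851 windows did. The MEF2 match in the Casq2 window, TTATTTTTAG, starts at position 182 of the window, counted from its 5′ end, and does not overlap the E-box at position 199. It was the only MEF2 match in the 10 windows, and 3.19% of all windows held such a match. These are letter matches and say nothing about binding in this tissue.

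Pln and Sln encode short membrane peptides that slow the calcium ATPase, phospholamban with 52 amino acids and sarcolipin with 31. Their coding sequences are shown because the exons counted for both genes are mostly untranslated, 2480 nt for Pln and 515 nt for Sln. They are given from the annotation of mm9 (NCBIM37), the build to which the reads were aligned, with start and stop codons in capitals.
Pln, chr10:53063670-53063828, plus strand: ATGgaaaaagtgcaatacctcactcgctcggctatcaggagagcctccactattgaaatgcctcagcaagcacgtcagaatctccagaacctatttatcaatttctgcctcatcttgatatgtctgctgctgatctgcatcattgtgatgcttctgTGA
Sln, chr9:53701280-53701375, plus strand: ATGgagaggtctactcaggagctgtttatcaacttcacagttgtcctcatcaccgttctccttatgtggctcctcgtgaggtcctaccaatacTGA
The coding sequences are 159 and 96 bases long, so that most of the counted exon bases of either gene lie outside them.

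Values are RPKM, reads scaled to exon length in kilobases and to sequencing depth, and were tested as log2(RPKM + 0.1) with limma over all 18810 genes. The study's threshold, an unadjusted p below 0.05, made a gene called, and adjusted p-values are given beside it. Depth was 46429970 to 68571025 reads per library, recovered from the steps of the values, and a member rested on 163 to 191931 reads in a library. Scx+/+ replicate 2 had the lowest depth. In it 2252 genes stood at a common low value filled in by the authors, against 1088 to 1465 in the other libraries (1333 in Scx-/- replicate 3). The part of depth in the results was not tested. Whole-gene Scx did not separate the genotypes, at 33.6, 18.6 and 82.9 RPKM in Scx-/- and 29.5, 58.3 and 26.0 RPKM in Scx+/+, so that the whole-gene value does not check the labels, and single exons were not analysed here. The paper states that lower expression of an Scx exon in the Scx-/- samples was established before sequencing. The sarcomere genes that mark cardiomyocytes were abundant in all 6 libraries. Their summed level was 23914 to 34897 RPKM in Scx-/- and 21816 to 38452 RPKM in Scx+/+, against 622 to 826 and 535 to 629 RPKM for 10 genes of valve mesenchyme.

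Scx-/- replicate 3 and Scx+/+ replicate 2 stood apart from the other 4 libraries. Among the 13827 genes that averaged 1 RPKM or more, 13.0% had their 2 highest values in this pair and 19.5% their 2 lowest. These shares were taken for this pair only, without those of other pairs beside them. Deviations from the genotype means correlated most strongly between this pair (r = 0.32 across genes, the highest of 9 pairs of libraries from different genotypes). Both libraries also held relatively less RNA from genes with a long total exon length. The correlation across genes between deviation and log2 exon length was -0.19 in Scx-/- replicate 3 and -0.17 in Scx+/+ replicate 2, against 0.04 to 0.25 in the others. The pair holds a library of each genotype. Without it, the log2 fold changes of Scx-/- over Scx+/+ given below moved from 0.13 to 0.039 for Trdn, from -0.30 to -0.45 for Cacna1c, from -0.07 to -0.15 for Slc8a1 and from 0.31 to 0.44 for Casq2, and those of Ryr2 and Sln stand beside their values.

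The levels spanned from Pln, with a mean of 1030 RPKM over the 6 libraries and rank 81 of all genes, down to Cacna1d with 1.61 RPKM and rank 12179. Between them came Casq2 (608 RPKM), Slc8a1 (392 RPKM), Atp2a2 (337 RPKM), Trdn (73.8 RPKM), Ryr2 (43.5 RPKM), Hrc (31.7 RPKM), Sln (16.5 RPKM) and Cacna1c (10.8 RPKM). Only the steps from Atp2a2 to Trdn and from Cacna1c to Cacna1d separated neighbours with no overlap of their ranges over libraries. Pln exceeded Casq2 in 6 of 6 libraries, although their ranges overlapped. Slc8a1 exceeded Atp2a2 in 5 of 6 libraries, and Sln exceeded Cacna1c in 4 of 6. None of the 10 genes had a value at the common low value that the authors filled in.

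**Figure D1:**
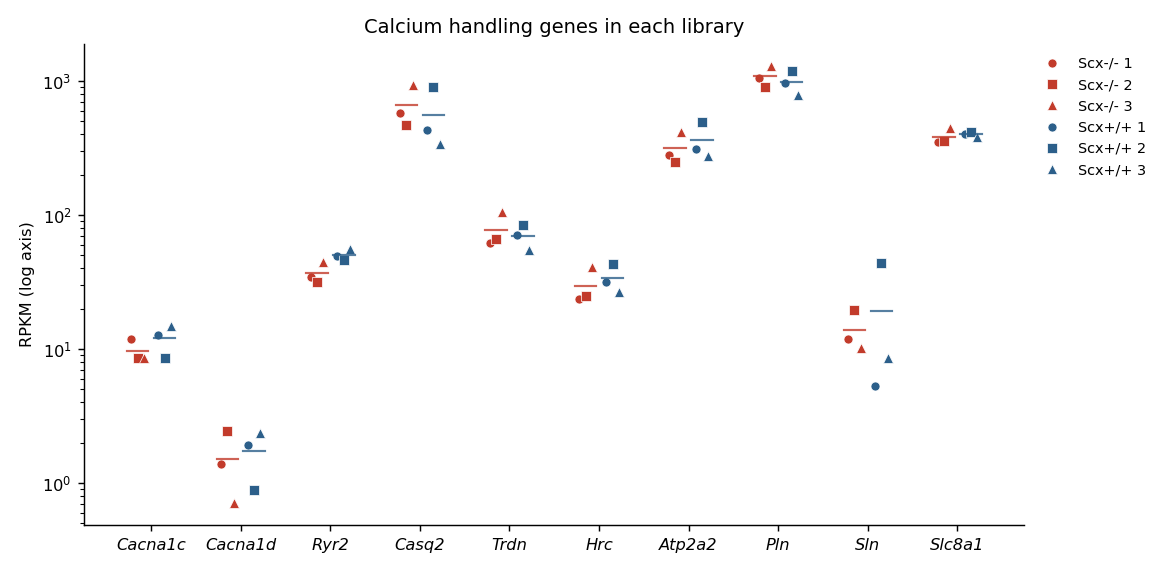
Levels of the 10 genes in each library, in RPKM on a log axis. Red points are Scx-/- and blue points Scx+/+ libraries, with symbols for the replicate number and short lines at the genotype means; the genotypes overlap for 9 of the 10 genes, and Ryr2 is the exception.

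Of the 10 genes, 1 was called, Ryr2, which was lower in Scx-/-. That is beside 3.89% of all genes called in either direction and 1.06% called lower. With the median of each library set to 0, 1.94% of all genes were called lower, and with quantile normalization 1.88%, and Ryr2 was called in both. For the other 9 genes the libraries of the genotypes overlapped, and the log2 fold change was smaller than the pooled SD within genotypes. No gene of the set, and 0 of all 18810 genes, passed an adjusted p below 0.05 in limma, where 731 of all genes passed the unadjusted threshold. The median log2 fold change was -0.12 over the 10 genes and 0.10 over all genes, and 4 of the 10 against 63.8% of all genes were above 0. When the median of each library was set to 0, the log2 fold change of Sln turned to -0.031, without a change of sign in the other 9 genes.

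Ryr2 encodes the cardiac ryanodine receptor, the calcium release channel of the sarcoplasmic reticulum. It (ENSMUSG00000021313, chr13:11645370-12199212 of mm9, minus strand) has 18191 nt of exon, the longest of the set. Ryr2 was 34.3, 31.7 and 44.2 RPKM in Scx-/- and 49.3, 45.8 and 55.9 RPKM in Scx+/+, in the order of the replicate numbers as for every gene below, from 32667 to 69688 reads. All 3 Scx-/- libraries lay below all 3 Scx+/+ libraries, a separation seen in either direction for 9.5% of all genes. The smallest gap was between the pair that stood apart, with 44.2 RPKM in Scx-/- replicate 3 and 45.8 RPKM in Scx+/+ replicate 2. The mean of Scx-/- was 36.7 ± 6.59 RPKM (SD, n = 3) and that of Scx+/+ was 50.3 ± 5.11 RPKM (SD, n = 3), and the log2 fold change was -0.46 (standard error 0.18, 95% interval -0.87 to -0.05, adjusted p = 0.967 from limma). Without the pair that stood apart it was -0.67 and still called, beside 8.44% of all genes in that fit. With the dependence on exon length and GC content taken out of each library it was -0.30 and no longer called, and of 6 fits with 1 library left out, 2 called it (those without Scx-/- replicate 3 or Scx+/+ replicate 2), with log2 fold changes from -0.60 to -0.36. Relative to the sarcomere genes it was -0.47 and not called.

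**Figure D2:**
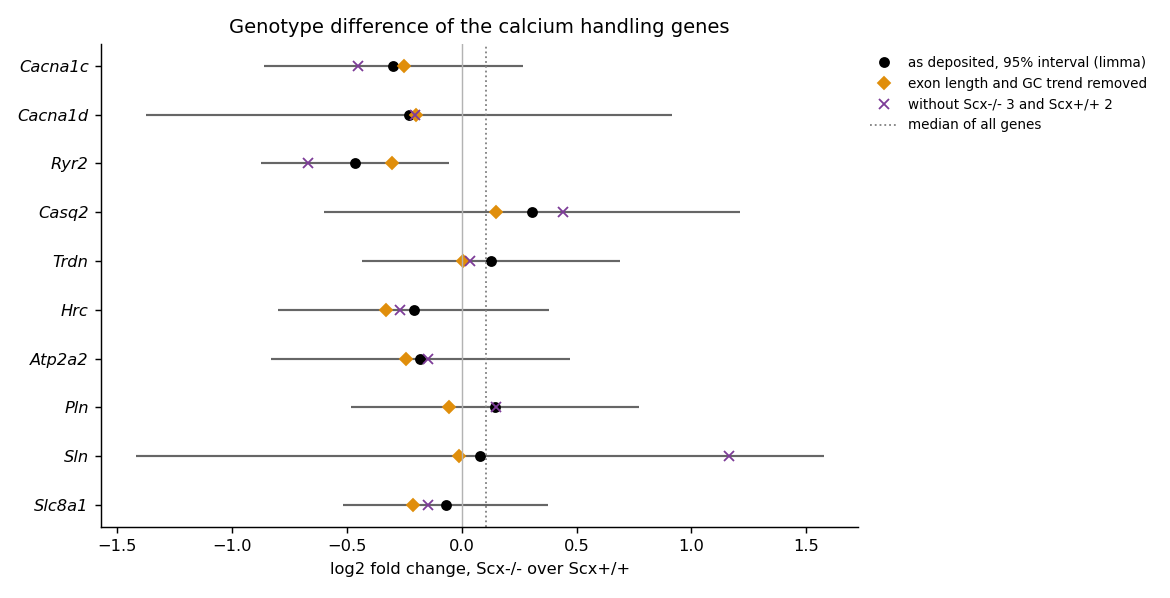
Log2 fold change of Scx-/- over Scx+/+ for the 10 genes. Black points and lines are limma estimates with 95% intervals on log2(RPKM + 0.1), orange diamonds have the dependence on exon length and GC content taken out, purple crosses leave out Scx-/- replicate 3 and Scx+/+ replicate 2, and the dotted line is the median of all genes (0.10). The interval of Ryr2 alone excludes 0, and Sln moves farthest, to 1.16, without the pair.

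Cacna1c and Cacna1d encode the pore subunits of the L-type channels Cav1.2, the main channel of working myocardium, and Cav1.3, known from atrial and pacemaker cells. Cacna1c (ENSMUSG00000051331, chr6:118542314-119146249 of mm9, minus strand) was 11.8, 8.61 and 8.56 RPKM in Scx-/- and 12.8, 8.48 and 14.9 RPKM in Scx+/+. Its log2 fold change was -0.30 (95% interval -0.86 to 0.27, adjusted p = 0.967 from limma). Without Scx+/+ replicate 2 it was -0.53 and called, beside 8.23% of all genes in that fit. Cacna1d (ENSMUSG00000015968, chr14:30853135-31304342 of mm9, minus strand) was 1.39, 2.43 and 0.707 RPKM in Scx-/- and 1.92, 0.885 and 2.36 RPKM in Scx+/+. Its lowest library in each genotype was the library of that genotype that stood apart, and its log2 fold change of -0.23 had a 95% interval from -1.37 to 0.91. Cacna1d shares 518 nt of its 9347 nt of exon with Chdh on the opposite strand, and the methods name no strand for the counting.

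Casq2, Trdn and Hrc act inside the store: calsequestrin 2 binds calcium, triadin anchors it to the ryanodine receptor, and the histidine-rich calcium binding protein buffers calcium as well. Casq2 (ENSMUSG00000027861, chr3:101890338-101950437 of mm9, plus strand) was 571, 470 and 932 RPKM in Scx-/- and 431, 903 and 339 RPKM in Scx+/+. Its highest library exceeded its lowest 2.75-fold, and the high value of each genotype was again in the pair that stood apart. Trdn (ENSMUSG00000019787, chr10:32803289-33196515 of mm9, plus strand) was 61.8, 66.1 and 105 RPKM in Scx-/- and 70.7, 84.8 and 54.8 RPKM in Scx+/+. Hrc (ENSMUSG00000038239, chr7:52590660-52594343 of mm9, plus strand) was 23.6, 24.7 and 40.6 RPKM in Scx-/- and 31.7, 43.3 and 26.6 RPKM in Scx+/+. The genotypes overlapped for all 3 genes, with log2 fold changes of 0.31 for Casq2, 0.13 for Trdn and -0.21 for Hrc. The 95% interval of Casq2 ran from -0.60 to 1.21.

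Atp2a2 (ENSMUSG00000029467, chr5:122903531-122952183 of mm9, minus strand) encodes SERCA2, the pump that refills the store. It was 281, 248 and 414 RPKM in Scx-/- and 313, 492 and 273 RPKM in Scx+/+, a log2 fold change of -0.18 (95% interval -0.83 to 0.47). Pln (ENSMUSG00000038583, chr10:53057492-53065805 of mm9, plus strand), its inhibitor, was 1048, 898 and 1296 RPKM in Scx-/- and 972, 1176 and 788 RPKM in Scx+/+, a log2 fold change of 0.15 (95% interval -0.48 to 0.77). The values of the genotypes overlapped for both genes. Pln shares 24 nt of its exons with Gm10942 on the opposite strand.

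Sln (ENSMUSG00000042045, chr9:53698058-53701651 of mm9, plus strand) encodes sarcolipin, known from atrial muscle. Sln was 11.9, 19.4 and 10.1 RPKM in Scx-/- and 5.27, 43.5 and 8.61 RPKM in Scx+/+, from 163 to 1040 reads. It varied most among the 10 genes, with an 8.25-fold range that came from Scx+/+ replicate 2. All Scx-/- libraries lay above Scx+/+ replicates 1 and 3 and below Scx+/+ replicate 2. The log2 fold change was 0.08 (95% interval -1.42 to 1.58, adjusted p = 0.996 from limma). It became 0.97 and called without Scx+/+ replicate 2, where 8.23% of all genes were called. With any other single library left out it was not called and had no steady sign. It was -0.54 without Scx+/+ replicate 1, -0.19 without Scx+/+ replicate 3 and -0.19 without Scx-/- replicate 2. Without Scx-/- replicate 1 it was 0.15, and without Scx-/- replicate 3 it was 0.27. It was 1.16 and called without the pair, where 8.44% of all genes were. Within the pair the order was the opposite, with 10.1 RPKM in Scx-/- replicate 3 and 43.5 RPKM in Scx+/+ replicate 2. Of 6 atrial markers, Nppa alone, the gene of atrial natriuretic peptide, was highest in the same library, at 1440 RPKM in Scx+/+ replicate 2 against 407 to 982 RPKM in the other 5. Myl4, Myl7, Gja5, Bmp10 and Nr2f2 were each highest in another library, and the part of atrial tissue in the level of Sln was not tested.

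Slc8a1 (ENSMUSG00000054640, chr17:81785359-82048947 of mm9, minus strand), which encodes the sodium-calcium exchanger NCX1 of the cell membrane, was the steadiest of the set. It was 353, 358 and 442 RPKM in Scx-/- and 402, 416 and 384 RPKM in Scx+/+, a 1.25-fold range. Its log2 fold change was -0.07 with a 95% interval from -0.51 to 0.38, the narrowest after that of Ryr2. Slc8a1 shares 8 nt of its exons with Gm11096 on the opposite strand.

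For 9 of the 10 genes the log2 fold change was nearer 0 than the pooled SD within genotypes. Casq2, Trdn, Hrc, Atp2a2, Pln and Slc8a1, 6 of the 10 genes, had their 2 highest values in Scx-/- replicate 3 and Scx+/+ replicate 2. Cacna1c and Cacna1d had their 2 lowest values there. Ryr2 and Sln followed neither pattern. Of the 18 sarcomere genes, 9 had their 2 highest values in the same pair and 0 their 2 lowest. Among all genes averaging 1 RPKM or more, these shares were 13.0% and 19.5%. The pair was picked out from these same data, so the counts describe it and are no test. The summed sarcomere level was 34897 and 38452 RPKM in the pair and 21816 to 29358 RPKM in the other 4 libraries.

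**Figure D3:**
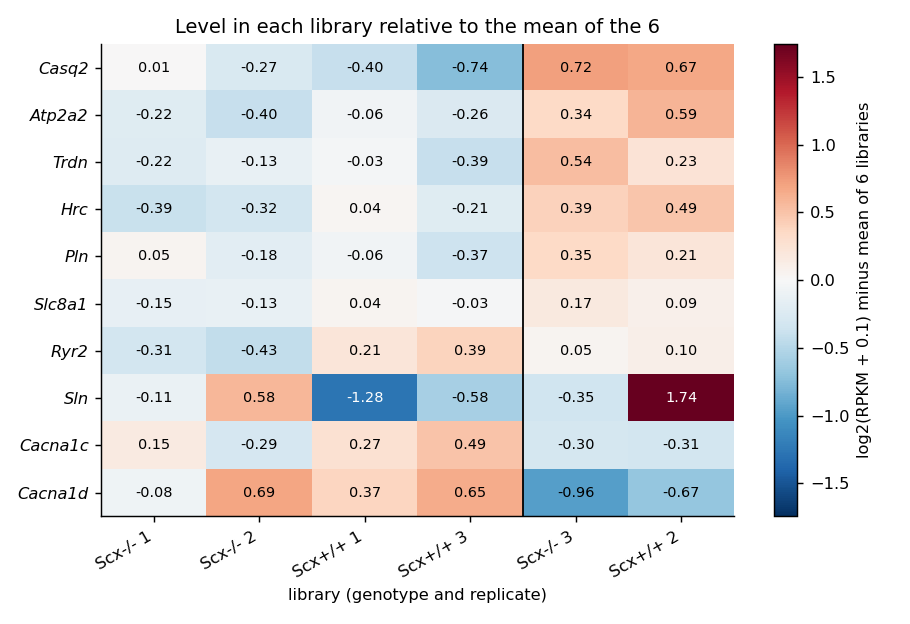
Level of each gene in each library as log2(RPKM + 0.1) minus its mean over the 6 libraries, with red above and blue below the mean. The 2 columns right of the line are Scx-/- replicate 3 and Scx+/+ replicate 2; Casq2, at 0.72 and 0.67, and 5 other genes are highest there, and Cacna1d, at -0.96 and -0.67, is lowest.

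Genes outside the calcium set moved with the same pair, and these were picked out after their values were seen. Tnni3, the adult isoform of cardiac troponin I, was 1110 RPKM in Scx-/- replicate 3 and 1321 RPKM in Scx+/+ replicate 2, against 521 to 761 RPKM in the other 4 libraries. Hbb-y, an embryonic beta globin, was 1.16 and 1.99 RPKM in the pair and 49.6 to 125 RPKM in the others. Related genes did not separate the pair in this way. Tnni1 was 644 and 706 RPKM in the pair and 480 to 738 RPKM in the others. Hba-a1 was 2711 and 2866 RPKM against 2464 to 4241 RPKM, and Hbb-b1 was 1996 and 2436 RPKM against 1388 to 2753 RPKM. Hbb-bh1 was at the common low value in the pair and also in Scx-/- replicate 1. The part of these differences in the level of the calcium handling genes was not tested.

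Ratios of genes within a library do not move with its scaling, and 5 such ratios were compared by an exact permutation test, two-sided, for which 3 against 3 libraries allow no p below 0.1. The ratio of Pln to Atp2a2, the inhibitor to its pump, was 3.73, 3.62 and 3.13 in Scx-/- and 3.11, 2.39 and 2.88 in Scx+/+. Every Scx-/- library was above every Scx+/+ library, though 3.13 and 3.11 lay close together. The difference of the log2 ratio was 0.33, from 1.80 ± 0.13 (SD, n = 3) in Scx-/- and 1.47 ± 0.19 (SD, n = 3) in Scx+/+ (exact permutation test, p = 0.1, the smallest possible, and 0.5 after Benjamini-Hochberg adjustment over the 5 ratios). It was 0.18 when the dependence on exon length and GC content was taken out, and from 0.22 to 0.41 over the 6 sets of 5 libraries.

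The ratio of Casq2 to Ryr2, the store protein to the release channel, was 16.7, 14.8 and 21.1 in Scx-/- and 8.73, 19.7 and 6.07 in Scx+/+. The genotypes overlapped through Scx+/+ replicate 2 alone, and the difference of the log2 ratio was 0.77 (exact permutation test, p = 0.3, adjusted 0.75) and 1.25 without that library. It was 1.11 without the pair that stood apart and 0.45 when the dependence on exon length and GC content was taken out. The other ratios overlapped widely. Their log2 differences were -0.06 for Sln to Pln, 0.05 for Cacna1d to Cacna1c (0.24 without the pair) and 0.11 for Slc8a1 to Atp2a2 (exact permutation tests, adjusted p = 1.0 each). Sln stood at 0.00542 to 0.0370 of the level of Pln, and Cacna1d at 0.0827 to 0.282 of the level of Cacna1c.

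**Figure D4:**
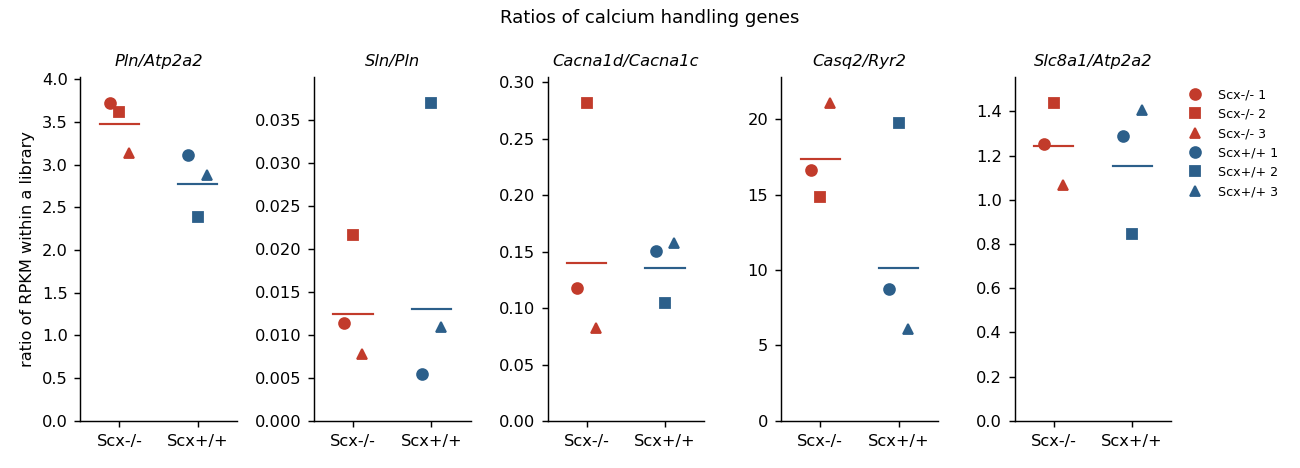
Ratios of RPKM of 2 genes within each library, on linear axes that start at 0. Points are libraries by genotype and replicate number, and lines are geometric means; for Pln to Atp2a2 the Scx-/- libraries (3.13 to 3.73) lie above the Scx+/+ libraries (2.39 to 3.11), and for the other ratios the genotypes overlap.

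Other genes of the pathway showed no called change. In 4 lists of 57 genes in all, 49 were in the table and 0 were called in limma with either direction, beside 3.89% of all genes. Of these 49 genes, 3 had no overlap between genotypes, Calm2 and Calm3 higher and Fkbp1a lower in Scx-/-, beside 9.5% of all genes. These 3 were picked out after their values were seen. The median log2 fold change of the 49 genes was 0.02. Of the 49, 8 had their 2 highest and 13 their 2 lowest values in the pair that stood apart, beside 13.0% and 19.5% of genes averaging 1 RPKM or more. Among release channels and junction proteins, 14 of 15 were in the table with a median of 0.01, and the most abundant was S100a1, a calcium sensor that binds the ryanodine receptor and SERCA2. S100a1 was 266, 171 and 341 RPKM in Scx-/- and 173, 439 and 153 RPKM in Scx+/+, so that its genotypes overlapped. Of channel subunits, 7 of 11 were in the table with a median of -0.09, led by Cacna2d1, the auxiliary alpha2delta subunit, at 14.0 to 15.8 RPKM in Scx-/- and 14.7 to 16.1 RPKM in Scx+/+.

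Among pumps, exchangers and buffers, 11 of 13 were in the table with a median log2 fold change of 0.16, and Calr, the calcium buffer of the endoplasmic reticulum, was the most abundant at 133 to 220 RPKM in Scx-/- and 150 to 188 RPKM in Scx+/+. Of calmodulin, kinases and phosphatase control, 17 of 18 were in the table with a median of 0.04, led by Ppp1ca, a catalytic subunit of protein phosphatase 1, at 161 to 197 RPKM against 135 to 191 RPKM. Without Scx+/+ replicate 2, 4 of the 49 genes were called, beside 8.23% of all genes in that fit, and without the pair 3 were, beside 8.44% of all genes. Calm2 and Calm3, which encode calmodulin, had log2 fold changes of 0.25 and 0.30 over all libraries.

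**Figure D5:**
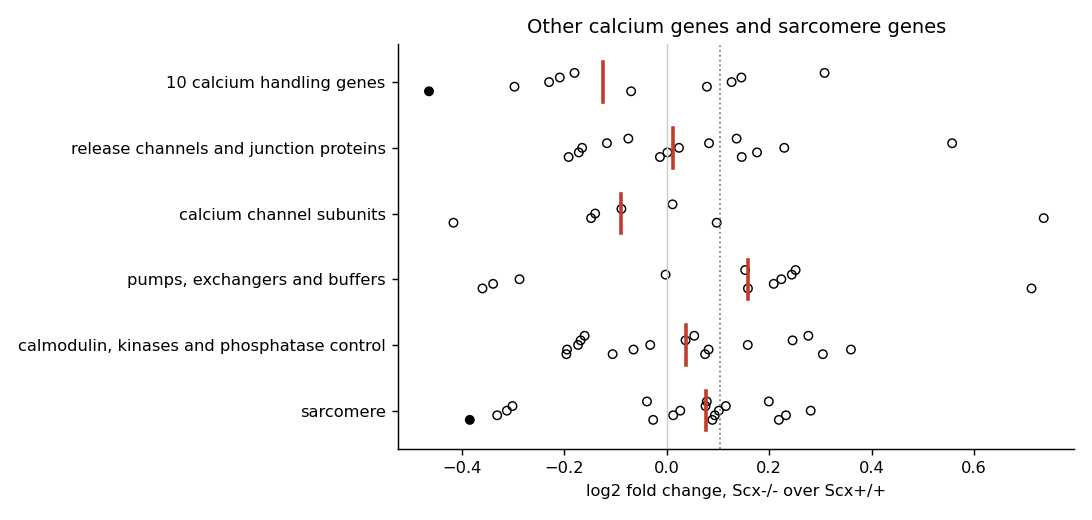
Log2 fold change of Scx-/- over Scx+/+ for each gene of the calcium handling set, 4 lists of other calcium genes and the sarcomere list. Filled points were called by limma at an unadjusted p below 0.05, red lines are list medians and the dotted line is the median of all genes (0.10); the called genes are Ryr2 and Ldb3.

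Among lists that mark cell types, sarcomere genes had a median log2 fold change of 0.08, with 1 of 18 called, beside 3.89% of all genes. The called gene was the Z-disc gene Ldb3 (-0.38, standard error 0.16, adjusted p = 0.967 from limma). Ldb3 was 37.6, 30.4 and 33.6 RPKM in Scx-/- and 44.1, 42.4 and 45.8 RPKM in Scx+/+, with no overlap between genotypes. Of the 18 sarcomere genes, 2 including Ldb3 had no overlap, both lower in Scx-/-, beside 9.5% of all genes in either direction. The most abundant sarcomere genes, Myl2 and Tnnt2, had log2 fold changes of 0.22 and 0.23 and were not called. The medians were 0.01 for 6 atrial, 0.08 for 6 ventricular, -0.13 for 5 of 8 nodal and conduction, -0.07 for 8 endothelial, 0.20 for 6 smooth muscle and 0.24 for 7 erythroid genes, with 0 called in each. Valve mesenchyme had a median of 0.18 with 1 of 10 called, the matrix proteoglycan gene Lum (0.85). Of these 10 genes, 3 had no overlap and were higher in Scx-/-, and 1 had none and was lower, beside 9.5% of all genes. The 6 macrophage genes had a median of 0.46 with 1 called, Cd68 (1.48). Both counts of called genes stand beside 3.89% of all genes. Cd68 had 6 to 130 reads, and its value in Scx+/+ replicate 2 was the common low value filled in by the authors.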

How the data were processed

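RNA-seq values of 6 atrioventricular canal libraries were used, 3 Scx-/- and 3 Scx+/+, at embryonic day 15.5. By their methods, the authors aligned reads to mm9 with TopHat 1.4.1, counted them in Ensembl exons with easyRNASeq and deposited RPKM, kept for genes with a minimum of reads in 1 library or more, with the lowest values replaced by a common one (0.0949 RPKM in the table). No counts were used. Symbols, positions and exon lengths came from the GENCODE annotation of mm9 (18695 of 18810 identifiers). Reads were recovered as whole numbers within 0.1 read for 98.5% to 98.6% of values under 1000 reads, and described depth only.

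Values as log2(RPKM + 0.1) went into limma 3.58.1 (R 4.3.3), with a prior variance that depends on mean level and genotype as the only term. Benjamini-Hochberg adjustment took in all 18810 genes, and the steps were checked on simulated data. Ratios were tested by exact permutation with scipy 1.17.1. The members and the lists of other calcium, sarcomere, atrial, ventricular, nodal, mesenchyme, endothelial, smooth muscle, erythroid and macrophage genes were chosen with earlier results of these data known. Named are the members, called list genes, the most abundant genes of lists, the 5 genes most like the members and Scx, and others are said to be picked after their values were seen. Alternatives were other pseudocounts, filters, scalings and tests, a replicate block and each library left out. Some genes are not reported here.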

Additional observations from a re-analysis of the deposited data

How the results depend on the processing

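Ryr2 was the called gene of the set under both other pseudocounts, the filter at a mean of 1 RPKM, both one-way ANOVAs, the median set to 0, quantile normalization and the replicate block. The count of called members was 0 in limma without a trend, 0 with the sarcomere genes set equal and 0 when the dependence on exon length and GC content was taken out, and 2 without Scx-/- replicate 3 and Scx+/+ replicate 2 (the last 2 settings were chosen after seeing the data). With each library left out it ran from 0 to 3, the highest without Scx+/+ replicate 2 (Cacna1c, Ryr2 and Sln). Of all genes, 8.23% were called in that fit and 8.44% without the pair, against 3.89% with all libraries. The other calcium genes called were 1 in one-way ANOVA on log2 values (Fkbp1a), 2 on RPKM (Calm3 and Fkbp1a), 3 without the pair and 0 to 4 with a library left out. All genes called were 421 with the sarcomere genes set equal, 1587 without the pair and 539 to 1549 with a library left out. Of genes called, 72.6% were higher in Scx-/- as deposited, 63.1% without a trend and 64.1% with the sarcomere genes set equal, and 43.5%, 49.9% and 45.2% with the median set to 0, quantile normalization and length and GC content taken out.

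Same-numbered libraries did not deviate together (r of 0.09, -0.22 and -0.19 across genes for numbers 1 to 3). Deviations sum to 0 within a genotype, so these correlations depend on each other. They cannot show whether equal numbers share a litter or a processing day, which the labels do not give. With the replicate block 573 genes were called, 1 of them among the 10 (Ryr2) and 0 among the other calcium genes. Crossed numbers were not tried with 3 libraries a group.

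The difference of the log2 ratio of Sln to Pln turned to 1.03 without the pair and 0.044 with length and GC content taken out, and ran from -0.69 to 0.69 with a library left out. That of Cacna1d to Cacna1c ran from -0.46 to 0.43, that of Slc8a1 to Atp2a2 from -0.11 to 0.25 and was -0.0011 without the pair, that of Casq2 to Ryr2 from 0.40 to 1.25 and that of Pln to Atp2a2 from 0.22 to 0.41. Log2 fold changes of single genes that changed sign were -0.056 for Pln and -0.012 for Sln with length and GC content taken out, and -0.031 for Sln with the median set to 0. With a library left out, the ranges were -0.63 to 0.19 for Cacna1d, -0.11 to 0.28 for Trdn, -0.40 to 0.070 for Atp2a2, -0.0011 to 0.29 for Pln and -0.54 to 0.97 for Sln. Casq2, Hrc, Slc8a1, Cacna1c and Ryr2 kept their sign in all 18 settings, but with a library left out Casq2 ran from 0.015 to 0.72, Hrc from -0.46 to -0.017, Slc8a1 from -0.17 to -0.012, Cacna1c from -0.53 to -0.12 and Ryr2 from -0.60 to -0.36. The cause of these changes was not tested. No gene passed an adjusted p below 0.05 in any setting but one-way ANOVA on log2 values, where 1 of all genes did. Sln and Cacna1d had the fewest reads, 163 and 384 in their lowest libraries, which limits their ratios.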

Other observations

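The genes most like the mean profile of the 10 genes over the 6 libraries, where genes averaging 1 RPKM or more were searched, were the pseudogene Gm15151, Tspo, Rdh5, a U2 snRNA and Nop10, with a Pearson correlation of 0.991 to 0.998. Tspo, a cholesterol-binding protein of the outer mitochondrial membrane, was 5.66, 5.87 and 9.88 RPKM in Scx-/- and 5.75, 17.0 and 5.24 RPKM in Scx+/+. The likeness rests on Scx+/+ replicate 2 and Scx-/- replicate 3, the highest libraries of all 5 genes, and on the large swing of Sln in the mean profile.

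Tmem38a, a cation channel of the sarcoplasmic reticulum, was among the other calcium genes with their 2 highest values in the same pair. It was 26.3, 20.6 and 41.0 RPKM in Scx-/- and 22.7, 56.1 and 22.3 RPKM in Scx+/+. Casq1, the skeletal muscle calsequestrin, was 79.1, 76.1 and 123 RPKM in Scx-/- and 69.2, 91.0 and 81.3 RPKM in Scx+/+, and was highest in the same pair too. Both were picked out after their values were seen.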
